A study of Mus musculus with 5 samples.

Results

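Runx2, Sp7, Dlx3, Dlx5, Dlx6, Atf4, Msx1, Msx2 and Irx5 are transcription factors of osteoblast commitment and maturation. They were located in the deposited expression table by the gene symbol of each probe set, and 8 of the 9 were measured, among 23185 named genes in all. Runx2 is not analysed here. Each of the 8 had 1 probe set.

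Osteoblasts, the bone-forming cells, arise from mesenchymal progenitors, and some of them become buried in matrix as osteocytes. Runx2 commits progenitors to the osteoblast line, and the zinc finger factor Sp7, also called osterix, is needed after it for bone matrix to form. The homeobox factors of the Dlx and Msx families act in patterning and in osteoblast maturation, Dlx factors mostly as activators and Msx factors mostly as repressors. Atf4, a leucine zipper factor, drives amino acid supply and osteocalcin synthesis in osteoblasts, and Irx5 is an Iroquois homeobox factor of craniofacial and skeletal development.

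The arrays held total RNA of Ocy454, an osteocytic cell line of the mouse, from which 5 lines grown from single cells were profiled on 1 array each. They came out of 37 clones tested for Sost, the gene of the secreted Wnt inhibitor sclerostin. The 2 clones with the highest expression, 12H and 15H, form the high-SOST group, and 3 clones with low expression, 4L, 9L and 24L, form the low-SOST group. All 5 were grown in aMEM with 10% FBS and 1% AA for 7 days at 37 °C, and none was treated. Each line is 1 clone, so a group difference holds whatever else sets these clones apart, and p-values measure only the spread between clones. A culture with fewer cells of a type cannot be told apart from one with less RNA per cell.

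Values are RMA log2 expression, on which 1 unit is a 2-fold difference, and levels of different genes are not comparable on it. Array medians were 4.13 to 4.16. As a mark of dim signal, the 95th percentile of 1350 receptor genes of smell and pheromone sensing, which belong to sensory tissue, was taken and lay at 3.37 to 3.56. Sost, which chose the clones, read 3.78 to 4.08, little above that mark, and the osteocyte genes Mepe and Fgf23 read under it in all 5 clones. The arrays barely separated the groups by Sost, at 4.08 in 12H and 3.919 in 15H, with 24L at 3.913, 9L at 3.89 and 4L at 3.78. Its difference was 0.14 (SE 0.07), or 1.10-fold. No gene passed limma with Benjamini-Hochberg adjustment at 0.05 (0 of 23185, or 0.0%, with a smallest adjusted p of 0.0856), and the unmoderated form of the test passed 1 gene, not one of the 8. At an unadjusted p under 0.05, limma called 712 genes higher in the high-SOST clones (3.07%) and 628 lower (2.71%). Sizes and the overlap of clones are therefore given beside each test.

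Sp7, Dlx3, Dlx6 and Irx5 read at least 2-fold higher in the high-SOST clones with no overlap between the groups, which is 4 of the 8 factors against 0.867% of all named genes. Dlx5 read higher in the same way and was just under the size limit, at 1.97-fold. None of the 8 read 2-fold lower without overlap, against 0.983% of genes. Without any size limit, 5 factors read higher without overlap (8.26% of genes) and 1, Msx2, read lower (7.75%). Among genes averaging 6 or more, these shares were 12.9% and 13.5%. Among genes spanning 2 log2 units or more over the clones, they were 21.0% and 26.3%. At an unadjusted p under 0.05, 1 factor, Dlx3, was higher and 0 were lower. The median difference of the 8 was 0.99, and that of all named genes was 0.00. The count of 4 was 2 without clone 4L, 2 without 12H and 2 with each clone's chromosome medians subtracted, and the median was 0.53 without 4L and 0.51 without 12H. At an unadjusted p under 0.05 in limma, Sp7 joined Dlx3 without 4L, and Atf4 was lower without 24L. Of the 23185 named genes, 1354 were called in either direction without 4L and 1273 without 24L, against 1340 with all 5 clones.

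**Figure D1:**
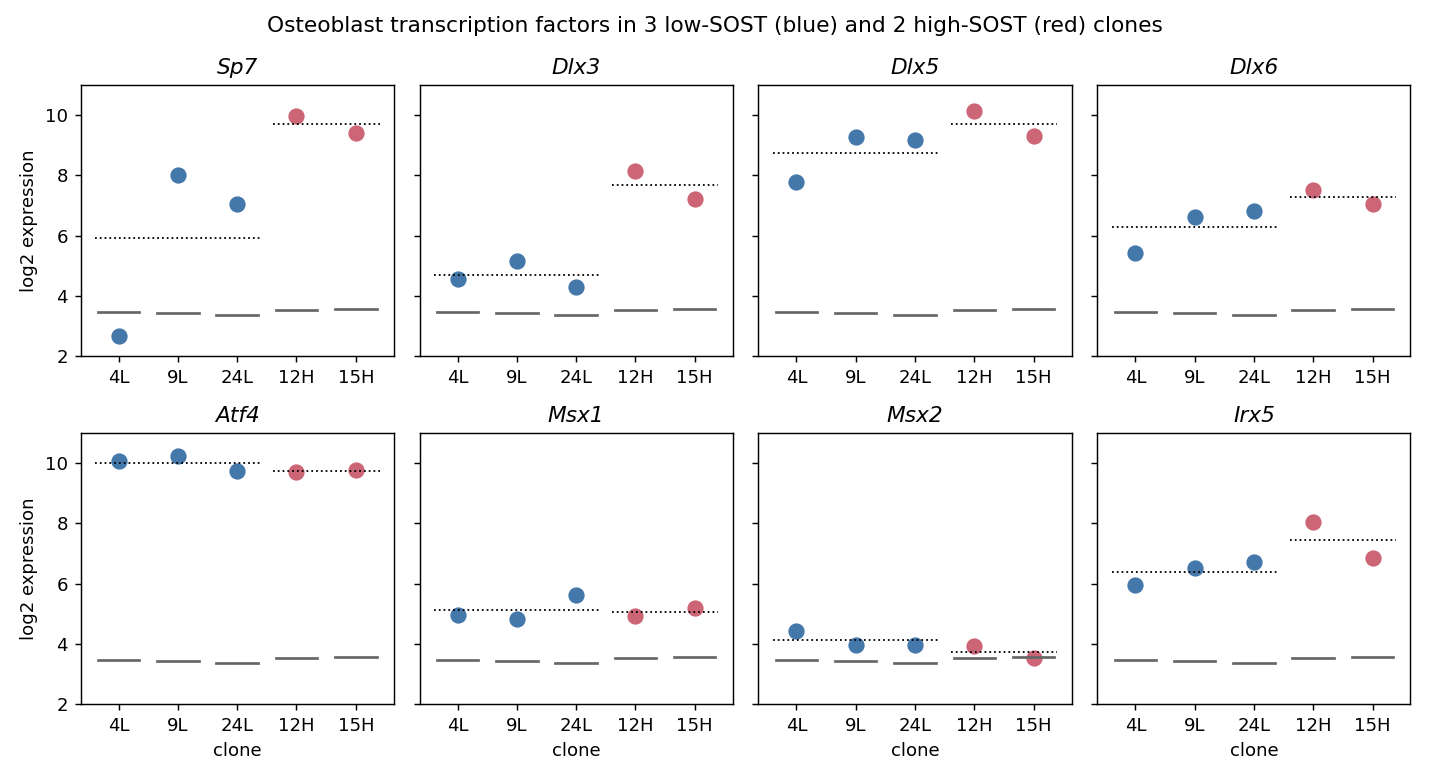
Expression of the 8 factors in each clone (RMA log2 expression on the vertical axis, 1 panel per gene, low-SOST clones blue and high-SOST clones red). Dotted lines are group means and short grey lines the receptor mark of each clone. Sp7 in clone 4L sits under its mark at 2.68, Dlx3 has a clear space between the groups, and Atf4 lies between 9.71 and 10.22 in all clones.

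Sp7 (Entrez gene 170574, chromosome 15) read 9.98 in 12H and 9.41 in 15H, while 9L read 8.004, 24L 7.05 and 4L 2.68. The high-SOST clones were the highest pair, 9L and 24L lay in between, and 4L read 0.78 under the receptor mark, so that no signal was told apart from background there. The high-SOST mean was 9.69 ± 0.40 (SD, n = 2), the low-SOST mean 5.91 ± 2.84 (SD, n = 3), and the difference 3.78 (SE 1.91, 95% interval -1.71 to 9.27) or 13.8-fold. It did not pass limma (p = 0.125, adjusted p = 0.737), and the exact permutation test, two-sided over 10 arrangements with a smallest possible p of 0.1, gave p = 0.2.

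Clone 4L had a large part in the size of the Sp7 difference and in its spread. With 4L set at its receptor mark of 3.46, it lay at least 3.59 below 24L, the next lowest clone. Between single clones, Sp7 in 12H was at least 91.7-fold above 4L by the same bound, 7.61-fold above 24L and 3.93-fold above 9L, with no replicate behind any of these. Without 4L the difference was 2.17 (SE 0.49) and its unadjusted p was 0.0276 (adjusted p = 0.732 in limma). The other low-SOST clones, 9L and 24L, still read lower than both high-SOST clones.

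Other genes also read far lower in 4L than in any other clone. Ibsp, which encodes bone sialoprotein, read under the mark in 4L and at least 4.90 below its next lowest clone. Panx3, which encodes a channel protein of osteoblasts and chondrocytes, and Bmp2, a bone morphogenetic protein, also read under the mark in 4L and lay at least 4.11 and 3.49 below. Alpl, tissue-nonspecific alkaline phosphatase, and Tle5, a gene of the Groucho family, read above the mark in 4L and lay 4.14 and 4.23 below. These genes were picked for their gaps and are a description of clone 4L.

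Dlx3 (Entrez gene 13393, chromosome 11), a homeobox activator of osteocalcin and other matrix genes, separated the groups with the widest space among the 8. It read 8.13 in 12H and 7.20 in 15H, while 9L read 5.16, 4L 4.58 and 24L 4.31. The lowest high-SOST clone lay 2.04 above the highest low-SOST clone, and 4L was here not the lowest clone. The high-SOST mean was 7.67 ± 0.66 (SD, n = 2), the low-SOST mean 4.68 ± 0.43 (SD, n = 3), and the difference 2.99 (SE 0.43, 95% interval 1.76 to 4.21) or 7.92-fold.

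For Dlx3 the unadjusted p of limma was 0.00294 and the exact permutation p was 0.1, the smallest it allows. Adjusted over all genes, limma's p was 0.572, so Dlx3 did not pass. Over 12 alternatives the difference stayed between 2.52 and 3.45, with adjusted p from 0.145 to 0.742. The lowest difference came without 12H, and the smallest adjusted p without 15H.

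Dlx5 (Entrez gene 13395) and Dlx6 (Entrez gene 13396), a homeobox gene pair side by side on chromosome 6, had nearly the same profile over the clones. Dlx5 read 10.13 in 12H and 9.30 in 15H, while 9L read 9.27, 24L 9.17 and 4L 7.77. Dlx6 read 7.53 in 12H and 7.06 in 15H, while 24L read 6.81, 9L 6.62 and 4L 5.42. In both genes 12H was the highest clone and 4L stood well under the other 4, while 15H lay close to 9L and 24L.

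The distance between 15H and the highest low-SOST clone was 0.026 in Dlx5 and 0.25 in Dlx6, less than the SD within either group. Dlx5 averaged 9.71 ± 0.59 (SD, n = 2) in the high-SOST and 8.74 ± 0.84 (SD, n = 3) in the low-SOST clones, which differ by 0.97 (SE 0.63, 95% interval -0.83 to 2.78). Dlx6 averaged 7.29 ± 0.33 (SD, n = 2) in the high-SOST and 6.29 ± 0.76 (SD, n = 3) in the low-SOST clones, which differ by 1.01 (SE 0.53, 95% interval -0.51 to 2.53) or 2.01-fold. Neither passed limma (adjusted p = 0.737 for both), and the exact permutation p was 0.4 for Dlx5 and 0.2 for Dlx6.

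Clone 4L lay 1.40 below the next lowest clone in Dlx5 and 1.20 below it in Dlx6, and without 4L the differences were 0.49 and 0.58. Without 12H they were 0.56 and 0.78. The excess of 12H over 15H was 0.83 in Dlx5 and 0.46 in Dlx6. The median of the 377 brighter genes of chromosome 6 was also 0.43 higher in 12H than in 15H, so that 0.40 of the excess was left in Dlx5 and 0.033 in Dlx6 once chromosome medians were subtracted. What part the chromosome-wide shift has in these readings was not tested.

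A transcript from the opposite strand overlaps Dlx6. This long noncoding RNA, Dlx6os1, read 5.70 in 12H, 4.91 in 24L, 4.85 in 15H, 4.78 in 9L and 4.01 in 4L. The order of Dlx6os1 had 12H on top and 4L at the bottom like Dlx6, but the groups overlapped (difference 0.71, SE 0.44). The chip definition is not given in the sources used here, so the signals of overlapping transcripts cannot be told apart. Sdhaf3, the measured neighbour on the other side of Dlx5, read 6.07 to 6.12 in all clones.

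Irx5 (Entrez gene 54352, chromosome 8) read 8.05 in 12H and 6.86 in 15H, while 24L read 6.70, 9L 6.53 and 4L 5.95. Clone 12H stood apart on the high side, 2.29-fold above 15H, and 15H was only 0.15 above 24L. The high-SOST mean was 7.45 ± 0.84 (SD, n = 2), the low-SOST mean 6.39 ± 0.40 (SD, n = 3), and the difference 1.06 (SE 0.48, 95% interval -0.32 to 2.44) or 2.08-fold. It did not pass limma (adjusted p = 0.737), with an exact permutation p of 0.1, and the difference was 0.46 without 12H and 1.66 without 15H.

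Crnde, the transcript next to Irx5, also read highest in 12H (6.34) and lowest in 4L (5.26), with overlapping groups. Irx3, another Iroquois gene of the same gene cluster, read 8.91 in 12H and 8.48 in 15H, with 9L at 8.30, 24L at 8.28 and 4L at 6.69. Its groups did not overlap, and its difference of 0.94 (SE 0.64) was close to that of Irx5, although the widest step lay between 4L and the other clones in Irx3 and between 12H and the other clones in Irx5.

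Msx1 (Entrez gene 17701, chromosome 5) read 4.92 in 12H and 5.19 in 15H, while 4L read 4.96, 9L 4.82 and 24L 5.62. The groups overlapped, with a low-SOST clone at either end of the order. The difference was -0.08 (SE 0.30, 95% interval -0.94 to 0.79, adjusted p = 0.981 in limma, exact permutation p = 0.9). The sign turned without 12H (0.06) and without 24L (0.17), and the interval allows close to a 2-fold difference either way.

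Msx2 (Entrez gene 17702, chromosome 13) read 3.93 in 12H and 3.54 in 15H, while 4L read 4.43 and 9L and 24L each 3.97. It was the only one of the 8 with both high-SOST clones below every low-SOST clone, but the nearest clones were 0.039 apart and 15H lay at the receptor mark. The difference was -0.39 (SE 0.22, 95% interval -1.03 to 0.25, adjusted p = 0.737 in limma, exact permutation p = 0.3). It was -0.20 without 15H and -0.23 without 4L. The median of brighter chromosome 13 genes was 0.17 lower in the high-SOST clones, and with chromosome medians subtracted the difference of Msx2 was -0.22.

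Atf4 (Entrez gene 11911, chromosome 15) read 9.71 in 12H and 9.76 in 15H, while 9L read 10.22, 4L 10.07 and 24L 9.73. All 5 clones read within 0.50 of each other, with 24L between both high-SOST clones. The high-SOST mean was 9.74 ± 0.03 (SD, n = 2), the low-SOST mean 10.01 ± 0.25 (SD, n = 3), and the difference -0.27 (SE 0.17, 95% interval -0.75 to 0.21, adjusted p = 0.737 in limma, exact permutation p = 0.3). Its interval excludes a 2-fold difference in either direction.

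The brighter genes of chromosome 15, 347 in number, read 0.32 lower on median in the high-SOST clones, and the 2 measured neighbours of Atf4, Mief1 and Rps19bp1, differed by -0.23 and -0.48. With chromosome medians subtracted, the difference of Atf4 was 0.05 (SE 0.12), so its sign turned. Sp7 lies on the same chromosome, and its difference was 4.11 after subtraction. The neighbours of Sp7, Aaas and Sp1, differed by -0.11 and -0.16.

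**Figure D2:**
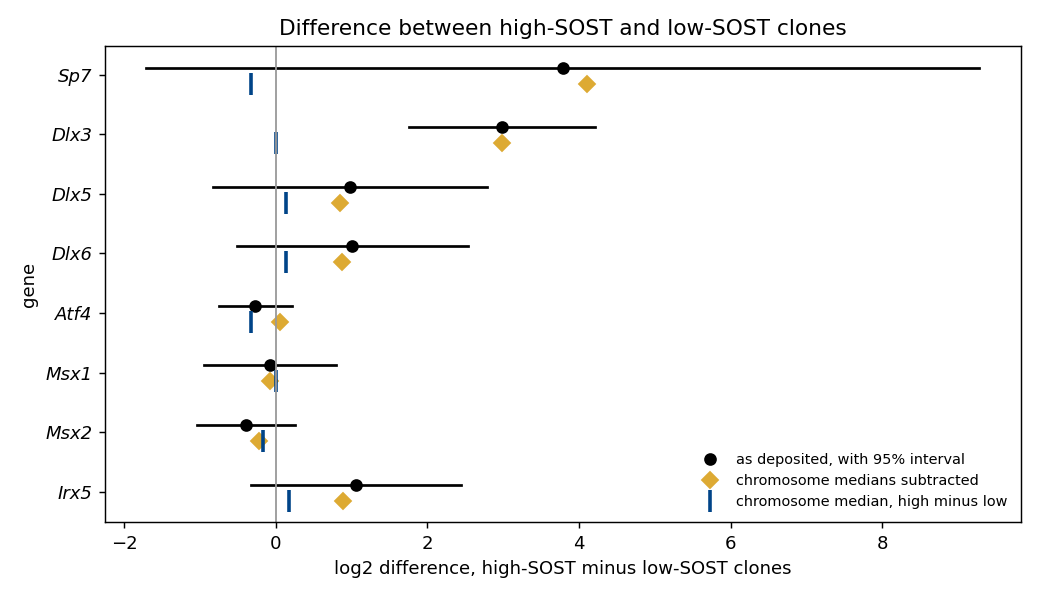
Difference of each factor between the 2 high-SOST and 3 low-SOST clones (log2 units on the horizontal axis). Black points with lines are the deposited values with 95% intervals, diamonds are the differences with chromosome medians subtracted, and bars are the shift of the median of brighter genes on the gene's chromosome. Only the interval of Dlx3, 1.76 to 4.21, lies off 0, and the diamond of Atf4 lies across 0 from its point.

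The order of the clones was shared by several factors. Clone 12H was the highest and 4L the lowest in 4 of the 8 (Sp7, Dlx5, Dlx6 and Irx5), an order held by 6.54% of all named genes and by 15.9% of the 691 genes that spanned 2 log2 units or more. Clone 15H was second in these 4 and in Dlx3, and 9L and 24L changed places between genes. Clone 12H read above 15H in 6 of the 8, with the exceptions of Atf4 and Msx1. These orders were not tested over 5 clones, and the 4 genes share their libraries.

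The factors Sp7, Dlx3, Dlx5, Dlx6 and Irx5 (5 of the 8) spanned at least 2 log2 units over the clones, as did 2.98% of named genes. After each gene was centred on its mean, the closest pair among the 8 was Dlx5 and Dlx6, with a root mean square difference of 0.159 over the 5 clones. Atf4 and Msx2 differed by 0.254, Dlx5 and Irx5 by 0.323, Dlx3 and Irx5 by 1.02, and Sp7 lay at least 1.76 from every other factor. The measure is not scaled, so genes that vary little over the clones lie close together. The Sp7 distances include its 4L reading under the receptor mark.

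By the same measure, the genes closest to Sp7 were Panx3 (0.336), Slc13a5, a citrate transporter (0.569), and Lama4, a laminin chain (0.688). Panx3 read 10.92 in 12H and 10.30 in 15H, with 9L at 8.69, 24L at 7.57 and 4L at 2.69, the same order as Sp7 and under the mark in 4L as well. Closest to Dlx3 were Slc36a2, an amino acid transporter (0.325), Spns2, a sphingosine-1-phosphate exporter (0.386), and B4galnt3 (0.424). Slc36a2 read 7.64 in 12H and 7.47 in 15H, with the other clones at 3.67 to 4.95.

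Irx3 was among the 3 closest genes of both Dlx5 (0.140) and Dlx6 (0.135). H2ac21, a histone gene, was also close to both (0.0538 and 0.129), next to Fam234b for Dlx5 (0.123) and Pard6g for Dlx6 (0.113). Closest to Irx5 were Klf2, a Kruppel-like factor (0.0627), Zfp862-ps (0.0843) and Pdgfa, a platelet-derived growth factor chain (0.152). Klf2 read 7.42 in 12H against 5.18 to 6.20 in the other clones. These likenesses are over 5 clones and are descriptions.

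Among 27 measured genes of the same families, 1 read at least 2-fold higher without overlap and 0 read lower so (0.867% and 0.983% of all named genes). The higher count rose without 9L, 15H or 24L, and the lower count without 9L or 15H. Fewer clones make non-overlap easier to reach. With all clones, the gene was Creb3l1, a membrane-bound factor known for collagen secretion in osteoblasts, which read 10.51 in 12H and 9.87 in 15H, with 24L at 9.39, 9L at 8.65 and 4L at 7.72 (difference 1.60, SE 0.60, adjusted p = 0.737 in limma). Dlx4, next to Dlx3 on chromosome 11, read 4.30 in 12H, 15H and 4L, 4.85 in 9L and 4.12 in 24L. The median of the family list was 0.06, against 0.99 for the 8 factors. At an unadjusted p under 0.05 in limma, 1 of its genes was higher and 1 lower (3.07% and 2.71% of all named genes). Without overlap at any size, 7 were higher and 3 lower (8.26% and 7.75%).

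Of 32 measured partners and regulators of these factors, 2 read at least 2-fold higher without overlap and 0 lower, with a median of -0.09. The shares of all named genes by this rule were 0.867% and 0.983%. The count of 2-fold higher genes fell without 4L, and that of lower genes rose without 4L, 9L or 15H. Non-overlap is easier to reach with fewer clones. Foxo1, a forkhead factor known to act with Atf4 in osteoblasts, read 8.10 in 12H and 7.95 in 15H, over 7.05, 7.01 and 6.35 in 4L, 9L and 24L (difference 1.23, SE 0.27, adjusted p = 0.720 in limma). Tle5 read 10.11 in 12H and 10.28 in 15H, with 9L at 9.61, 24L at 9.44 and 4L at 5.21, so that its 4.32-fold difference lay mostly in 4L.

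Cbfb, the binding partner of RUNX proteins, read 9.44 in 12H and 8.85 in 15H, against 8.50 to 8.84 in the low-SOST clones (difference 0.43, SE 0.24). Twist1 and Twist2, repressors of osteoblast maturation, differed by -0.08 and -0.29, but Twist2 read under the receptor mark in both high-SOST clones. Trps1 and Fosl2, a zinc finger repressor and an AP-1 factor, differed by -0.13 and -0.41. In the last 4 the groups overlapped.

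Genes of bone matrix and mineral, known as targets of Runx2, Sp7 and Dlx factors or as products of mature osteoblasts, were read next. Of 27 measured, 14 were at least 2-fold higher in the high-SOST clones without overlap and 0 lower (0.867% and 0.983% of all named genes). At an unadjusted p under 0.05 in limma, 9 were higher and 1 lower (3.07% and 2.71%), and 0 passed after adjustment. Their median difference was 1.03. In 12 of the 27, clone 12H was the highest and 4L the lowest, an order held by 6.54% of all named genes. It was held by 15.9% of genes spanning 2 log2 units or more. The order was also held by 4 of 14 chondrocyte markers, 2 of 12 tendon and fibroblast markers and 3 of 27 family genes. It was held by 0 of 32 partners and regulators and 0 of 29 ATF4 targets. The list of matrix and mineral genes was drawn up with earlier results of these clones known, so its direction is no independent evidence.

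Bglap, which encodes osteocalcin, read 6.03 in 12H and 5.62 in 15H, while 9L read 4.18, 4L 3.74 and 24L 3.45. As in Dlx3, the groups were well apart and 24L was the lowest clone (difference 2.04, SE 0.28, adjusted p = 0.572 in limma). Bglap in 24L and 4L lay little above the receptor marks of 3.37 and 3.46, so the order of these clones is uncertain. Phospho1, a phosphatase that starts mineral formation, read 10.36 and 9.61 against 6.45 to 7.48 (difference 2.95, SE 0.43).

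Ibsp had the order of Sp7 and read 11.80 in 12H and 11.52 in 15H, with 9L at 9.56, 24L at 8.35 and 4L at 2.24 (difference 4.94, SE 2.64). Alpl read 11.61, 11.30, 10.93, 10.36 and 6.21 in the same order of clones (difference 2.29, SE 1.73). In both, 4L stood far under the rest, as in Sp7.

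Ifitm5, a membrane protein of mineralizing osteoblasts, read 8.58 in 12H and 7.48 in 15H, with 9L at 5.85, 24L at 4.64 and 4L at 3.71. Smpd3, a sphingomyelinase needed for mineralization, read 9.44, 7.52, 6.10, 5.90 and 4.28 in the same order of clones. Dmp1 and Phex, genes of mineralizing osteocytes, read 5.75 to 7.45 in the high-SOST clones and under the receptor mark in all 3 low-SOST clones. Podoplanin (Pdpn), a membrane glycoprotein of newly embedded osteocytes, lay on the other side, with 8.35 in 12H and 8.06 in 15H and 8.97 to 9.20 in the low-SOST clones (difference -0.92, SE 0.13, adjusted p = 0.572 in limma). Col1a1 and Sparc, abundant matrix genes, differed by 0.51 and 0.11 with overlapping groups. No type I collagen gene was among the 14.

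Upstream sequence of 3 target genes is shown because they are among the 14 that read higher and hold the letters of motifs these factor families are known to bind. Each run is the 250 bases before the gene's start from RefSeq (GRCm38.p6), written 5′ to 3′ on the gene's strand, and capitals mark the matches on either strand. Bglap lies on the minus strand (chr3:88384467-88384716), Ibsp on the plus strand (chr5:104299037-104299286) and Ifitm5 on the minus strand (chr7:140950244-140950493). The genes were chosen after their values were seen.
Bglap: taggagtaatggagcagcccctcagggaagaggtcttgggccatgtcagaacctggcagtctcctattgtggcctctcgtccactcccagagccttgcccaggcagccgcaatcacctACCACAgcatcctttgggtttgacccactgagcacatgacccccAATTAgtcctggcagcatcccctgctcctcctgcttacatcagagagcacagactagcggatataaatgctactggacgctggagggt
Ibsp: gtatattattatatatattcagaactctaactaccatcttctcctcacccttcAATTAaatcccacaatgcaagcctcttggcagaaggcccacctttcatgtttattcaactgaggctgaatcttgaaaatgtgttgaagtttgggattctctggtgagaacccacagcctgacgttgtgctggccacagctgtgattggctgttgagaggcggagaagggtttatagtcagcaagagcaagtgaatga
Ifitm5: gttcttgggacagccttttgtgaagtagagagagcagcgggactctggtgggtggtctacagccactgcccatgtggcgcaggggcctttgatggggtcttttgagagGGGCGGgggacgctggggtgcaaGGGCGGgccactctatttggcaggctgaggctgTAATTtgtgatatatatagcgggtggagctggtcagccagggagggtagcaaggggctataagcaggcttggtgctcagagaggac

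The Bglap run holds ACCACA, the core letters of RUNX sites, 132 bases before the start, and TAATT, a homeodomain core, on the opposite strand at 88 bases. Ibsp holds TAATT on the opposite strand at 197 bases. Ifitm5 holds GGGCGG, the GC box of Sp factors, at 142 and 119 bases and TAATT at 86 bases. No 2 of these matches overlap within a run.

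Such letters are common. Of 32851 RefSeq promoters of the same length, 14.0% hold ACCACA, 25.0% TAATT and 32.7% GGGCGG on either strand. Of the 13 higher target genes with an entry, 3, 5 and 7 hold them, where a gene with several starts counts if any start has a match. A match is not a bound site, and none of these data measure binding. Of the 8 factors, 3 have an entry (Atf4, Msx1 and Msx2).

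**Figure D3:**
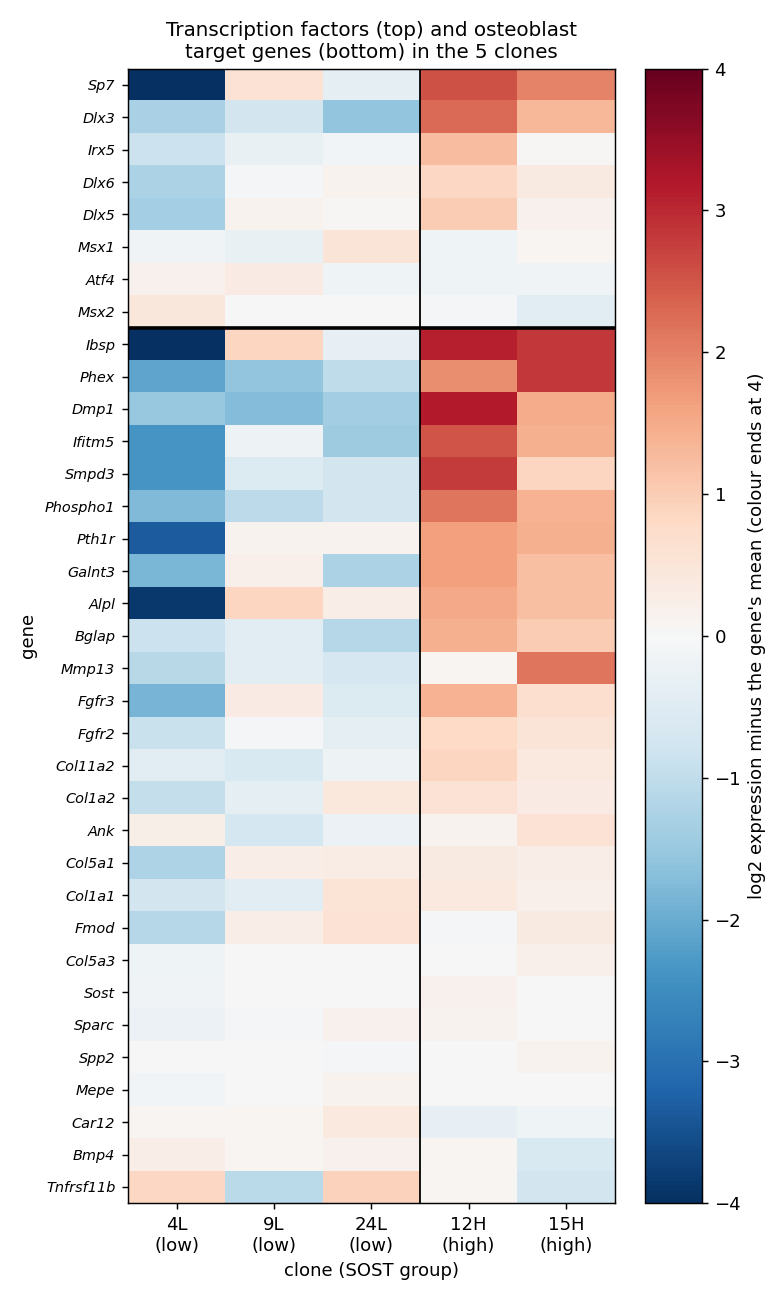
Deviation of each gene from its own mean over the 5 clones (colour, log2 units, ending at 4 on either side), with the 8 factors above the line and the 27 measured target genes below it, ordered by difference. Red is above the mean and blue below it. The top 5 factors and the top 14 target genes are blue in 4L and red or near the mean in 12H and 15H.

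Targets of ATF4 belong mainly to amino acid synthesis and the stress response. Of 29 measured, 0 were at least 2-fold higher and 1 lower without overlap (0.867% and 0.983% of all named genes). Without overlap at any size, 8 were lower (7.75%). At an unadjusted p under 0.05 in limma, 0 were higher and 3 lower (3.07% and 2.71%). The count of 1 gene lower by 2-fold rose without 9L, 12H or 24L in turn, where fewer clones make non-overlap easier to reach. The median was -0.16. Cth, cystathionine gamma-lyase of cysteine synthesis, read 6.57 in 12H and 6.66 in 15H, with 4L at 8.54, 9L at 7.91 and 24L at 7.68 (difference -1.43, SE 0.30, adjusted p = 0.681 in limma). Asns, Trib3 and Ddit3, commonly used readouts of ATF4 activity, differed by -0.16, 0.03 and 0.14, with overlapping groups.

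In BMP signalling, which acts upstream of the Dlx and Msx genes, 1 of 29 measured genes read at least 2-fold higher without overlap. Another 1 read lower so, and the median was 0.08. Of all named genes, 0.867% were higher and 0.983% lower by this rule. The higher count rose without 9L or 15H and the lower count without 12H, where fewer clones make non-overlap easier to reach. Smad9, a receptor-activated Smad, read 6.95 in 15H and 6.32 in 12H, against 4.66 to 5.79 (difference 1.38, SE 0.44). Bmp6, a ligand, read 2.71 in 12H, under the receptor mark, and 3.76 in 15H, with 24L at 4.54, 9L at 4.59 and 4L at 7.09 (difference -2.17, SE 1.04). Id1, an early target of BMP signals, differed by -0.08, and the ligand Bmp4 by -0.44.

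**Figure D4:**
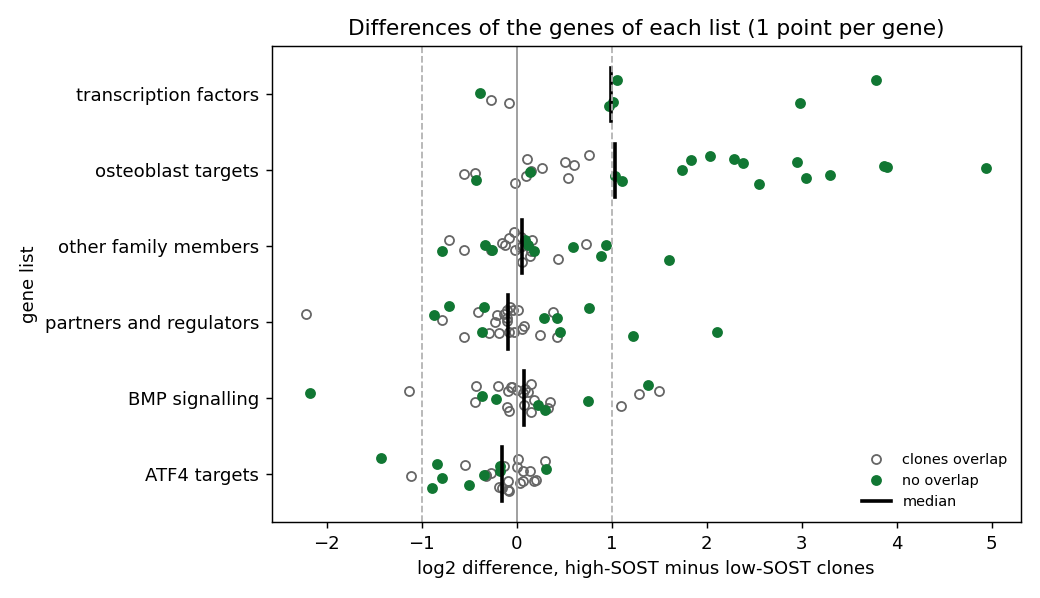
Difference of every measured gene of each list between high-SOST and low-SOST clones (log2 units, 1 point per gene, filled where the groups did not overlap). Bars are medians and dashed lines mark a 2-fold difference. The medians are 0.99 for the 8 factors and 1.03 for the target genes, and lie between -0.16 and 0.08 for the other 4 lists.

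Marker genes of several cell types were read beside these results. Of 12 osteocyte and osteoblast markers, 5 were at least 2-fold higher without overlap and 0 lower (0.867% and 0.983% of all named genes). At an unadjusted p under 0.05 in limma, 3 were higher and 1, Pdpn, lower (3.07% and 2.71%). Of 14 chondrocyte markers and 12 adipocyte markers, 0 were 2-fold apart without overlap. The count of higher chondrocyte markers rose without 9L or 15H, where fewer clones make non-overlap easier to reach. Sox9 and Pparg, leading factors of these cells, differed by 0.40 and 0.33 with overlapping groups.

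Of 12 muscle markers 1 read at least 2-fold higher (Des, 1.26), against 0.867% of all named genes, and 0 did without 4L. Of 12 tendon and fibroblast markers 1 read 2-fold higher (Pdgfra, 2.80) and 1 lower (Scx, -1.02), against 0.867% and 0.983% of all named genes. At any size, 1 of these 12 was higher and 5 lower without overlap (8.26% and 7.75% of all named genes). At an unadjusted p under 0.05 in limma, 0 were higher and 3 lower (3.07% and 2.71%). The 3 were Scx, Egr1 at -0.95 and S100a4 at -0.63. The count of 1 lower by 2-fold became 0 with chromosome medians subtracted. It fell without 15H and rose without 12H. Of 11 blood and endothelial markers 0 were 2-fold apart without overlap.

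Above the receptor mark in all clones were 8 of 14 chondrocyte, 4 of 12 adipocyte and 7 of 12 muscle markers. So were 8 of 12 tendon and fibroblast and 3 of 11 blood and endothelial markers, and 12941 of all 23185 named genes. Some lay close to the mark, which was 3.56 in 15H, such as Spi1 at 3.57 and Comp at 3.69 in every clone. Markers above the mark in all clones included Sox9, Col2a1, Pparg, Myog, Scx and Cd68. Those under it in all clones included Acan, Col10a1, Fabp4, Adipoq, Tnmd, Ptprc and Pecam1.

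The summed linear signal of the chondrocyte list was 345 to 453 in the low-SOST and 452 to 473 in the high-SOST clones. For the adipocyte list it was 135 to 148 and 147 to 162, and for the tendon and fibroblast list 1960 to 3070 and 1940 to 2420. The muscle sum was 632 to 787 and 859 to 1000 without overlap, and Mef2d, a MEF2 factor, made up 332 to 460 of it in the low-SOST and 601 to 689 in the high-SOST clones. The blood and endothelial sum was 206 in 4L and 117 to 144 in the other clones. The part of these markers in the readings of the 8 factors was not tested.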

How the data were processed

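Biotin-labelled RNA of each clone was put on 1 Affymetrix array, per the labels' protocols. Deposited values are on the log2 scale, 1 per probe set. RMA, affy 1.36.1 and R 2.15.1 are named in the submitters' processing notes. By subtracting background and equalising the distribution of arrays, RMA takes out clone-wide shifts, and folds of dim genes are understated. Neither genome build nor chip definition is given in the sources used here.

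Of 25206 probe sets, 23185 had 1 gene in the platform table and 2021 were not named and left out. Names, chromosomes and neighbours came from RefSeq genes (GRCm38.p6).

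Each gene was fitted with limma 3.58.1 in R 4.3.3 (lmFit and eBayes, no trend, not robust, 2 against 3 clones, residual degrees of freedom 3, prior degrees of freedom 0.7). Tests were two-sided and p-values adjusted by Benjamini-Hochberg over 23185 genes, with 0.05 as threshold. The fit was tested on simulated data. Differences are high-SOST minus low-SOST clones. Single factors were also tested by exact permutation of clones.

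Described by size were genes with a log2 difference of 1 or more without overlap. Lists are given by counts and medians. Gaps and folds against a reading of 4L under its receptor mark are lower bounds taken from that mark. Genes averaging at least 6, called brighter genes in the text, gave the chromosome medians. Named were the 8 factors, a panel of pathway genes, up to 4 further genes per list by size among those 2-fold apart without overlap, the 3 nearest patterns per factor spanning 2 log2 units, and neighbours. Genes outside this rule (wide gaps in 4L, Sparc and some markers among them) were chosen after their values were seen. The factors and lists were chosen with earlier results of these data known. Alternatives were other scalings, chromosome medians subtracted, a filter on dim genes, other variance models, other limits and leaving out each clone. Plots used matplotlib 3.10.9 (Python 3.11.15).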

Additional observations from a re-analysis of the deposited data

How the results depend on the processing

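The differences of the 8 factors kept their direction and their side of the threshold in 93 of 96 combinations of factor and alternative. The sign of Atf4 turned to 0.0535 with chromosome medians subtracted, because the subtracted shift of chromosome 15 was wider than its difference. The sign of Msx1 turned to 0.06 without 12H and 0.17 without 24L (range with 1 clone left out -0.23 to 0.17), and the cause was not tested. The 4 factors at least 2-fold higher without overlap became 2 with chromosome medians subtracted (Dlx6 and Irx5 then differed by 0.88 each), and 2 to 5 with 1 clone left out, with 2 without 4L and 2 without 12H. Factors higher at an unadjusted p under 0.05 in limma numbered 1, and 1 to 2 with 1 low-SOST clone left out. Factors lower numbered 0, and 0 to 1 with 1 low-SOST clone left out, with Atf4 the 1 without 24L. The median difference of 0.99 ranged from 0.51 without 12H to 1.32 without 15H. Over all named genes 0 passed an adjusted p of 0.05 and 3 passed 0.1, while 2 passed 0.05 with arrays shifted to 1 median, 2 with chromosome medians subtracted and 1 in the unmoderated test. None of the 8 factors passed in any of these. Of the list counts, 241 were within 1.5 times of those reported and 23 were not. The 14 higher target genes numbered 12 without 4L and 12 without 12H. Without 12H or 15H, the spread of the lone high-SOST clone was taken from the low-SOST clones. Leaving out any clone also makes non-overlap easier to reach. The shares of all named genes by the 2-fold rule are not given for those settings. No paired analysis was possible because the clones share no replicate numbers. With 5 arrays, differences under about the width of the intervals given are not detectable, and levels at the receptor mark cannot be told from background.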

Other observations

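Other genes of the lists described above also lay apart between the groups, and they are given here after their values were seen. Among the matrix and mineral genes, Galnt3, a glycosyltransferase of phosphate balance, read 8.88 in 12H and 8.45 in 15H, with 9L at 7.45, 24L at 5.97 and 4L at 5.42 (difference 2.38, SE 0.72). The growth factor receptors Fgfr2 and Fgfr3 differed by 1.11 (SE 0.29) and 1.74 (SE 0.78), and both had 12H on top and 4L at the bottom. Mmp13, a collagenase of bone, read 5.81 in 15H, 3.73 in 12H and under the receptor mark in the low-SOST clones. Car12, a carbonic anhydrase, read lower without overlap (-0.43, SE 0.14). None of these passed limma after adjustment (adjusted p = 0.737 for each).

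Among regulators, Snai2, a zinc finger repressor, read 8.84 in 12H and 9.06 in 15H, with 9L at 9.38, 4L at 9.76 and 24L at 10.33 (difference -0.87, SE 0.33). Ets1, an ETS factor, read higher without overlap (0.45, SE 0.15), and Atf3, a stress-induced factor of the Atf4 pathway, read lower (-0.78, SE 0.18). Runx1, another RUNX gene, read 5.43 in 12H and 6.30 in 15H with 4L at 6.91, 9L at 5.82 and 24L at 7.00, with overlapping groups. Twsg1, an extracellular modulator of BMP signals, differed by -0.36 (SE 0.06, adjusted p = 0.602 in limma), with 9.24 to 9.31 in the low-SOST clones and 8.83 and 8.99 in 12H and 15H.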
